A study of Mus musculus with 30 samples.

Results

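The noncollagenous cartilage matrix genes described here are 10 genes of the mouse fracture callus: Acan, Hapln1, Comp, Prg4, Matn1, Matn3, Cnmd, Ucma, Scrg1 and Clec3a. They were chosen by name from the 43629 genes of the read count table, by function and with their levels by diet and day already known, so the levels below are a description and the tests are no independent support for the choice. Callus RNA came from male C57BL/6J mice that were Lean controls or had diet-induced obesity (DIO) from a high-fat diet. The mice were 20 weeks old at the end of acclimation, before fracture, so age at harvest rose with the day. All mice carried the same injury, an open tibial fracture osteotomy of the right hindlimb held by an intramedullary pin, so both diets share the fracture and no unfractured tissue enters. Calli of both diets were taken on d3, d5, d7 and d10 after fracture, and DIO calli also on d14 and d21, with 3 calli per diet and day and 30 libraries in all. For Lean mice the last 2 days are not analysed here. DIO is a model of obesity in which hyperglycemia and insulin resistance come together, so a difference between diets cannot be assigned to any of these alone. Each library is RNA of a whole callus, in which fewer chondrocytes and less RNA per chondrocyte cannot be told apart.

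A long bone fracture that is not rigidly fixed heals through a cartilage template. Chondrocytes fill the gap, lay down matrix, enlarge and are replaced by bone. Their matrix is a network of collagen fibrils that holds a water-binding gel of aggrecan, the large proteoglycan encoded by Acan, which is anchored to hyaluronan by the link protein Hapln1. Comp and the matrilins Matn1 and Matn3 bridge the proteoglycans and the fibrils. Cnmd (chondromodulin) is an inhibitor of vessel growth made by cartilage, Ucma is a small vitamin K-dependent protein of growth plate cartilage, Clec3a is a cartilage C-type lectin, and Scrg1 is a small secreted protein that is expressed during chondrocyte differentiation. Prg4 (lubricin) lubricates joint surfaces and is made by the superficial zone and the synovium rather than by the deep cartilage.

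On GRCm38 the genes lie on separate stretches of 8 chromosomes, by the GENCODE M21 annotation. Acan is at chr7:79053483-79115099, Hapln1 at chr13:89539796-89611652, Comp at chr8:70373558-70382066 and Prg4 at chr1:150449412-150466165. Matn1 is at chr4:130944385-130955475, Matn3 at chr12:8947929-8972028 and Cnmd at chr14:79637690-79662170. Ucma is at chr2:4976122-4985748, Scrg1 at chr8:57455923-57477585 and Clec3a at chr8:114418086-114425846. Prg4 and Cnmd are on the minus strand. Prg4 shares 204 exonic bases with Tpr on the opposite strand, and since the strand setting of the counting is not given in the sources used here, reads in that stretch may belong to either gene. The other 9 genes overlap no exon of another gene and have no near-identical stretch elsewhere.

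RefSeq promoter sequences (GRCm38.p6) were found for 6 of the 10 genes: Ucma, Matn1, Acan, Matn3, Hapln1 and Cnmd. They were searched on both strands, in windows from 250 bases before the start to 50 after it, for AACAAT and ACAAAG, cores of SOX sites, for TGTGGT, a core of RUNX sites, and for TATAAA. The RUNX core TGTGGT occurred in Ucma, Matn1 and Hapln1, 3 of the 6, and in 16.8% of 32851 RefSeq promoters. The matches began at -62 in Ucma (minus strand), -134 in Matn1 and -160 in Hapln1, counted from the start. The other motifs were in 0 of the 6 windows and in 10.7% (AACAAT), 18.7% (ACAAAG) and 13.6% (TATAAA) of all promoters, and no matches overlapped each other. A match describes letters and not a bound site, and a window without one says nothing about the factor. The 250 bases before the start are shown for Ucma, which had the widest diet difference on d7, for Matn1, whose match lies nearer the start than that of Hapln1, and for Acan as the main proteoglycan. The strand is plus for all 3, and capitals mark TGTGGT or its reverse complement ACCACA. Starts are those of RefSeq, and that of Acan lies before its GENCODE start at 79053483. In 5 of the 6 windows searched, the last 30 bases lay in a GENCODE transcript of the gene in the same direction.
Ucma, chr2:4975872-4976121: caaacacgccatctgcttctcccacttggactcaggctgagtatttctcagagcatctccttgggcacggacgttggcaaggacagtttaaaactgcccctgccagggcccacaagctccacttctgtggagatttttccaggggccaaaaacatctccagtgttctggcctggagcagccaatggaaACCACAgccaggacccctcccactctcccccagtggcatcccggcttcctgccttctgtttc
Matn1, chr4:130944135-130944384: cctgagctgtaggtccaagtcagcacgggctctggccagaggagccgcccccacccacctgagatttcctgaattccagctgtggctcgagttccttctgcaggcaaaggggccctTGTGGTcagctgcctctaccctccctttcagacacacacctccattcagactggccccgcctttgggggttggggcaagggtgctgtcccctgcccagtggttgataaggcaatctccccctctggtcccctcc
Acan, chr7:79052976-79053225: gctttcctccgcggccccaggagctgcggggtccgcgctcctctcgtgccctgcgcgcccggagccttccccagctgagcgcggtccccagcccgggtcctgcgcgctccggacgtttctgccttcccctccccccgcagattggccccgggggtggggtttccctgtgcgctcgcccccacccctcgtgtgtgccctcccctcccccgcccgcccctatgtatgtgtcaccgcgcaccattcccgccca

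Between 13247122 and 26365620 reads per library were counted on genes (median 16854427). Levels are given in CPM, the counts per 1000000 counted reads after TMM scaling. The chondrocyte-defining list (Col2a1, Sox9, Col9a1, Col11a2, Sox5 and Sox6) was detected in every group and summed to 614 to 1330 CPM in DIO d3 calli and to 12600 to 32700 in DIO d7 calli. Some calli stood apart, and 3 libraries were above the others of their group in all 10 genes: replicate 3 of Lean d5, replicate 3 of Lean d7 and replicate 1 of Lean d10. In these same libraries the summed skeletal muscle markers were the lowest of their groups, at 5040, 5870 and 1150 CPM against 9860 to 19900 CPM in the other Lean libraries of d5 to d10. Replicate 1 of DIO d10 had the lowest level of its group in all 10 genes.

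Acan, the core of the gel, stood at 247, 179 and 178 CPM in the 3 Lean libraries of d3, at 276, 502 and 1158 on d5, at 611, 464 and 1517 on d7 and at 6406, 1149 and 1025 on d10. In DIO libraries it was 183, 268 and 484 CPM on d3, 1765, 1568 and 1121 on d5, 3119, 2275 and 3834 on d7 and 159, 468 and 348 on d10. On d14 and d21 it was 30.1, 22.7 and 79.2, then 4.04, 48.99 and 14.5. The highest mean of Lean mice was thus on d10 and that of DIO mice on d7, and the DIO libraries of d7 all lay above those of Lean mice while those of d10 all lay below. Of the 9 neighbouring pairs in the order of the 10 group means, only Lean d3 over DIO d14 was free of overlap.

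Hapln1 followed the same course at a lower level. It stood at 49.2, 61.3 and 285 CPM in Lean d5 libraries, at 117, 88.6 and 517 on d7 and at 890, 241 and 240.0 on d10. The DIO values were 492, 532 and 210 on d5, 1715, 801 and 882 on d7 and 16.7, 106 and 100.1 on d10. On d3 it was between 9.97 and 36.3 CPM in both diets, and from d14 on at most 18.2. DIO d7 and Lean d10 libraries overlapped, because replicate 1 of Lean d10 reached the range of the DIO libraries.

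**Figure D1:**
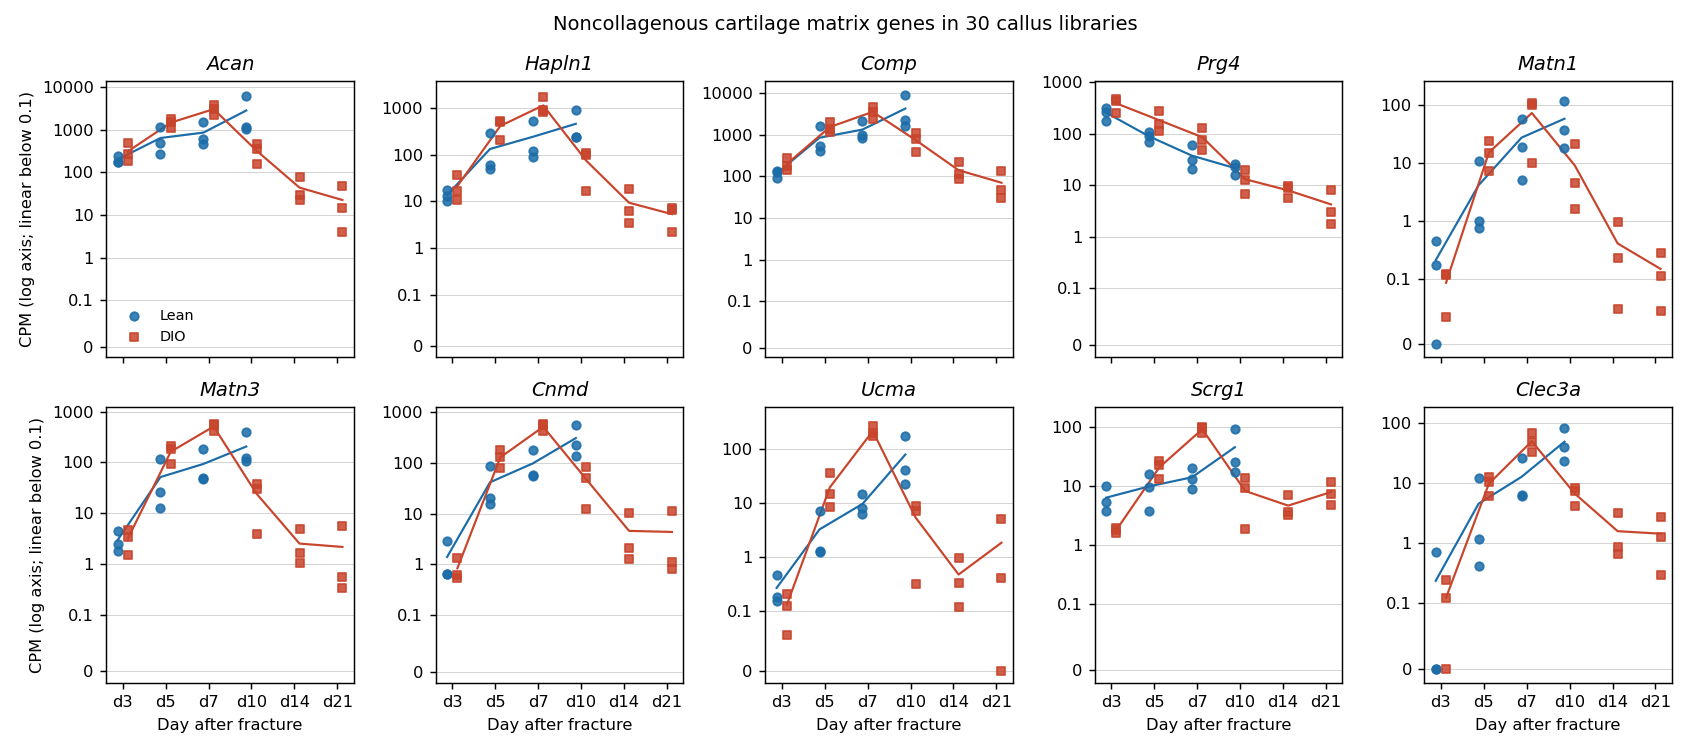
CPM of the 10 genes (vertical, log axis that is linear below 0.1) in each of 30 libraries by day after fracture, with circles for Lean, squares for DIO and lines through the means of 3 calli. For 9 genes the Lean line is highest on d10 and the DIO line on d7, while Prg4 is highest on d3 in both diets, with means of 254 CPM in Lean and 385 CPM in DIO calli.

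Among the bridging proteins Comp was the most abundant of the 10 genes, per kilobase of exon, on d7 in DIO mice (mean 1186 CPM per kb, Acan 412) and on d10 in Lean mice (mean 1421, Acan 383). It stood at 403, 535 and 1585 CPM in Lean d5 libraries, 984, 832 and 2145 on d7 and 8779, 2276 and 1596 on d10. In DIO libraries it was 2013, 1377 and 1166 CPM on d5, 3524, 2371 and 4661 on d7 and 378, 1074 and 765 on d10. Comp was the 1 gene whose highest group mean was Lean d10 (4217 ± 3965 CPM, SD, n = 3) and not DIO d7 (3519 ± 1145), although the difference is well inside the spread. It was also the most abundant of the 10 per kilobase on d14 and d21, with 111, 84.98 and 224 CPM on d14 and 29.6, 134 and 45.7 on d21, when Acan was at most 79.2.

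Matn1 was close to absent at first. The 3 Lean d3 libraries held 8, 5 and 0 Matn1 reads and the DIO d3 libraries 2, 1 and 2. It reached 19.5, 5.20 and 58.9 CPM in Lean d7 libraries and 120, 38.3 and 18.7 on d10, against 100.1, 10.2 and 112 in DIO d7 libraries and 1.61, 21.5 and 4.66 on d10. Within DIO d7 it had the widest spread of the 10 genes, with an 11-fold range, and replicate 2 lay far under the other two. On d21 it was back at 5, 2 and 1 reads. Matn3 stood at 50.3, 46.4 and 183 CPM in Lean d7 libraries and 389, 108 and 121 on d10. The DIO values were 558, 414 and 556 on d7 and 3.98, 38.3 and 30.4 on d10. All DIO d7 libraries were thus above all Lean d10 libraries for Matn3, which was not so for Matn1.

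Among the small secreted proteins Ucma had the steepest course. It stood at 8, 5 and 3 reads in Lean d3 libraries and 1, 5 and 2 in DIO d3 libraries, all under 0.47 CPM. Lean libraries held 1.25, 1.23 and 7.15 CPM on d5, 6.09, 8.03 and 14.4 on d7 and 172, 40.3 and 22.4 on d10. DIO libraries held 14.3, 35.2 and 8.25 CPM on d5, 175, 194 and 268 on d7, and 0.307, 8.55 and 7.06 on d10. The lowest DIO d7 library was therefore above the highest Lean library of any day. On d21 the 3 libraries had 0, 87 and 8 reads, and the count of 0 still allows 3 reads.

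Scrg1 kept the highest share of its DIO d7 level on d21. Lean libraries had 3.68, 9.96 and 5.29 CPM on d3, 8.82, 13.2 and 19.9 on d7 and 92.8, 25.1 and 17.2 on d10. DIO libraries had 1.62, 1.82 and 1.97 CPM on d3, 78.4, 97.9 and 96.2 on d7 and 1.84, 13.7 and 9.04 on d10. On d14 it was 3.60, 7.08 and 3.20 CPM and on d21 11.5, 4.70 and 7.30, so the d21 mean was 8.64% of the d7 mean, above that of the other 9 genes. Replicate 1 of DIO d21, the lowest of its group for 8 genes, was the highest for Scrg1. That library also had the lowest muscle marker sum of its group, 358 CPM, and the highest leukocyte marker sum, 9840 CPM; their part in its Scrg1 level was not tested.

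Cnmd stood at 56.7, 55.7 and 182 CPM in Lean d7 libraries and 562, 223 and 139 on d10. In DIO libraries it was 546, 426 and 573 CPM on d7 and 12.3, 82.2 and 49.4 on d10. It began near the limit of detection, with 9 to 50 reads per library on d3, and ended at 0.807, 11.1 and 1.12 CPM on d21. Clec3a was not detected in 3 of the 6 d3 libraries and had 2, 4 and 12 reads in the others. It stood at 6.21, 6.09 and 25.8 CPM in Lean d7 libraries and 84.4, 23.03 and 39.6 on d10, against 67.4, 33.6 and 48.8 in DIO d7 libraries and 4.21, 8.40 and 7.41 on d10. For both genes the DIO libraries of d7 were all above those of Lean mice, and the DIO libraries of d10 were all below.

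Prg4, the lubricant, ran the other way. It was highest on d3, at 319, 177 and 267 CPM in Lean and 426, 253 and 476 in DIO libraries. It was 67.9, 89.5 and 108 CPM on d5 in Lean libraries and 114, 277 and 153 in DIO libraries, then 31.1, 20.2 and 60.4 against 76.5, 131 and 48.1 on d7. On d10 the Lean libraries had 26, 15.7 and 22.4 CPM and the DIO libraries 6.59, 12.6 and 19.8, and DIO mice ended at 1.73, 7.95 and 2.96 on d21. Mean levels were lower on each later day in both diets. The sum of the 8 synovial and superficial zone markers did not follow it. They summed to 62.6 to 88.3 CPM on d3 and to 93.8 to 111 on d21, and Prg4 alone was above that sum in all d3 libraries. Single markers differed: from d3 to d5 in DIO mice Has1 was called lower and Erg higher. The mean of Has1 in DIO calli was 5.67 CPM on d3, 0.483 on d14 and 1.04 on d21.

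**Figure D2:**
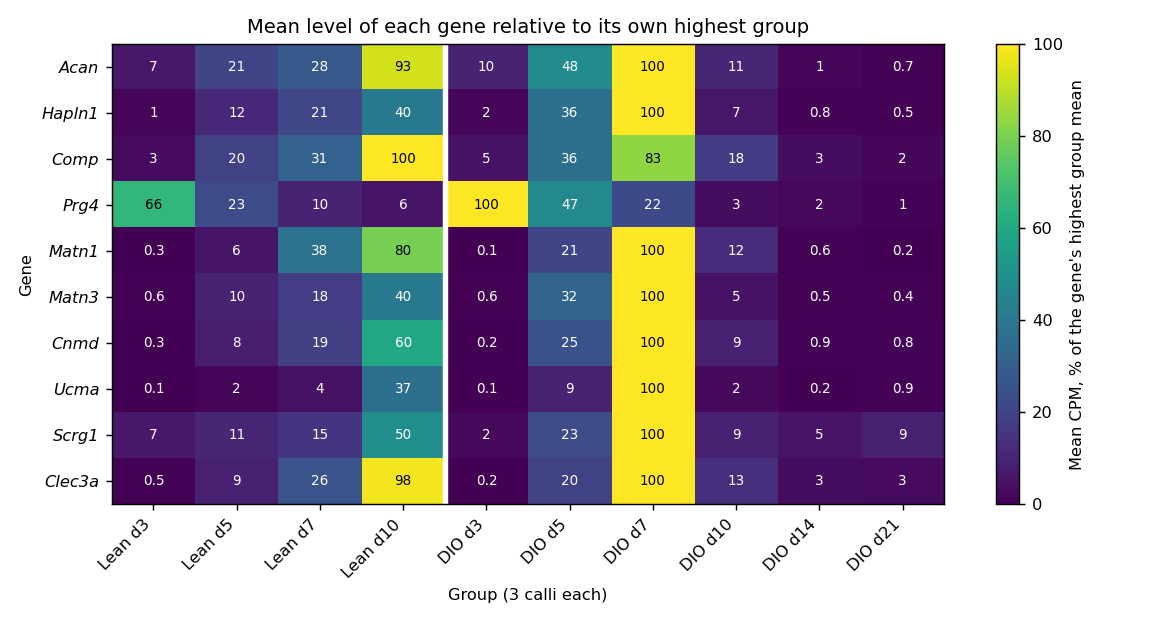
Mean CPM of each gene in each group of 3 calli, as a percentage of that gene's highest group mean (colour and printed number). The d10 mean of DIO calli is between 2.5% (Ucma) and 17.5% (Comp) of the highest mean for all genes. The Lean d10 mean is from 36.8% (Ucma) to 100% (Comp) of the highest mean for the 9 genes other than Prg4.

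The 9 genes other than Prg4 shared their highest days but not the size of the ratio to d3. Taking ratios of group means, the DIO d7 level was 9.87 times the d3 level for Acan, 17.7 times for Comp and 53.5 times for Hapln1. It was 160 times for Matn3 and 615 times for Cnmd, and for Ucma 1633 times, a ratio whose lower level rests on 8 reads in 3 libraries. Lean d10 over Lean d3 was 14.2-fold for Acan, 36.2-fold for Comp, 69.5-fold for Matn3, 220-fold for Cnmd and 295-fold for Ucma, which had 16 reads in the 3 Lean d3 libraries. Acan and Comp, which started at the higher levels, thus had smaller ratios than genes that started near 0, and Scrg1, which started at a few CPM, had 50.4-fold in DIO and 7.14-fold in Lean mice. The Lean ratios rest on replicate 1 of Lean d10. Without it they were 5.39-fold for Acan, 16.6-fold for Comp, 38.6-fold for Matn3, 129-fold for Cnmd, 119-fold for Ucma and 3.36-fold for Scrg1, and d10 was then the highest Lean day for 8 genes, with Hapln1 at 240.4 CPM against a mean of 241 on d7.

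The question of the diet comparison is whether DIO calli held the same level of these genes as Lean calli on the same day. On d3 no gene passed the test: of the 15772 genes tested 0% were called, and the 7 members that passed the filter on low counts had log2 differences (DIO minus Lean) from -1.83 to 0.75. Matn1, Ucma and Clec3a did not pass the filter. Scrg1 had the lowest adjusted p, 0.114 by edgeR, with -1.83 ± 0.38 (SE, n = 3 per diet), and its DIO libraries were all under the lowest Lean library. Comp was the 1 of 10 genes whose DIO libraries were all higher (log2 difference 0.75 ± 0.26, adjusted p = 0.239 by edgeR), against 9.45% of genes with at least 10 reads in the 6 libraries. At an unadjusted p under 0.05 were 2 members and 2374 genes (15.1%), and DESeq2 called 726 genes and, of the members, Scrg1.

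On d5 all 10 genes had a higher mean in DIO mice and 0 passed by edgeR, while 1.08% of all genes were called. At an unadjusted p under 0.05 were 5 members and 18.5% of all genes, and DESeq2 called Prg4. The log2 differences ran from 0.86 (Comp) to 2.56 ± 0.77 (Ucma, adjusted p = 0.141 by edgeR). Groups were free of overlap, with DIO higher, for Prg4 and Ucma, which is 2 of 10 beside 9.78% of genes. Without replicate 3 of Lean d5, the highest of its group in all 10 genes, 8 members passed, all but Prg4 and Scrg1, beside 5.82% of all genes. Ratios of DIO to Lean means then ran from 2.30 to 17.5 with a median of 7.28, against a range of 1.81 to 5.99 with it. That library was picked by these same genes, so leaving it out widens their differences in itself. With any other library of d5 left out, 0 members passed.

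On d7 4 members rose in DIO over Lean mice, while 2.32% of all genes were called in either direction. They were Ucma (log2 difference 4.48 ± 0.34, adjusted p = 0.0018), Scrg1 (2.71 ± 0.29, 0.0047), Cnmd (2.39 ± 0.44, 0.028) and Matn3 (2.45 ± 0.49, 0.0376), all by edgeR over 15753 genes. In linear terms Ucma was 22.3 times higher in the mean of DIO calli and Scrg1 6.51 times. The other 6 did not pass: Acan had 1.83 ± 0.43 (adjusted p = 0.0614 by edgeR), Hapln1 2.23 ± 0.62, Clec3a 1.97 ± 0.53, Comp 1.42 ± 0.39, Prg4 1.19 ± 0.43 and Matn1 1.41 ± 0.87. DIO libraries were all higher for 8 of 10 genes, all but Prg4 and Matn1, beside 9.37% of genes. Replicate 3 of Lean d7 again held the Lean values up: without it 8 members passed beside 1.5% of genes, and Matn3 had 3.42 and Cnmd 3.22. This library too was picked as the highest in these same genes, so leaving it out widens their differences in itself. The calls of Matn3 and Cnmd were lost without replicate 1 or 2 of Lean d7 or replicate 1 of DIO d7, and that of Matn3 also without replicate 2 of DIO d7, with Ucma and Scrg1 called in each of these fits.

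**Figure D3:**
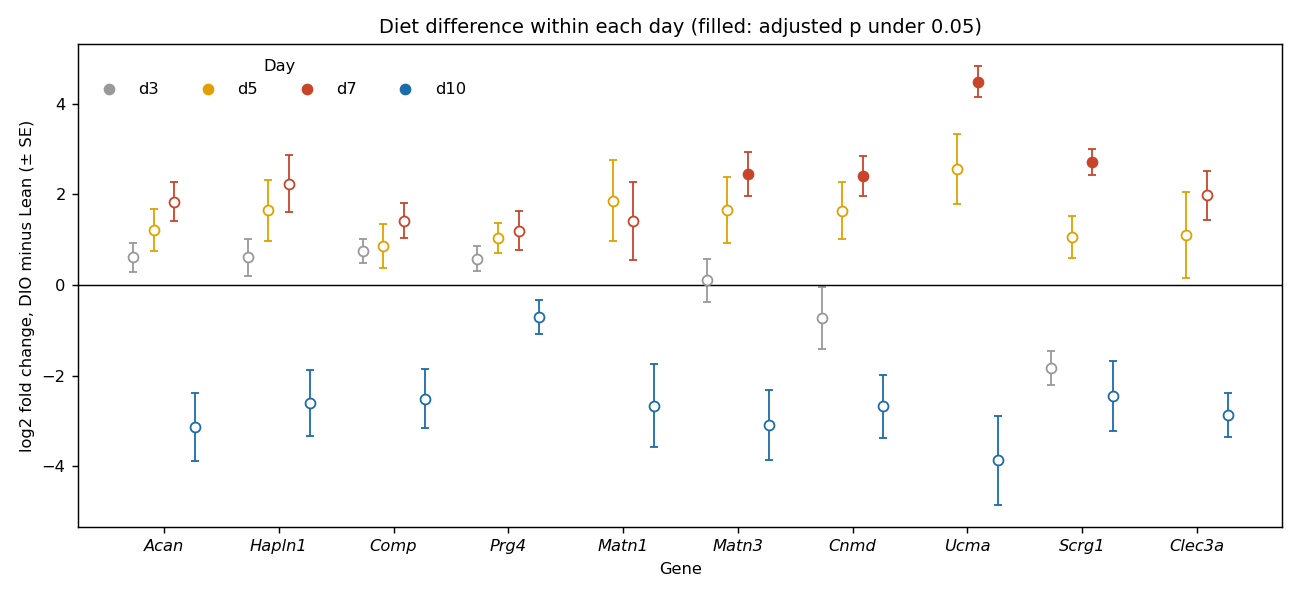
Log2 fold change of DIO minus Lean calli (vertical, bars are SE of the edgeR fit, 3 calli per diet) for each gene on d3, d5, d7 and d10, with filled points for an adjusted p under 0.05. Points lie above 0 for all genes on d5 and d7, where 4 are filled on d7, and below 0 for all on d10, where none is filled; Matn1, Ucma and Clec3a have no d3 point because they did not pass the filter.

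On d10 the order of the diets was turned for all 10 genes, and 0 members passed. The log2 differences ran from -0.71 ± 0.38 (Prg4) to -3.86 ± 0.98 (Ucma), with Acan at -3.13 ± 0.75 and Clec3a at -2.87 ± 0.48. The adjusted p of all 10 was 0.686 or 0.687 by edgeR, with 0% of 15341 genes called and 1082 genes (7.05%) at an unadjusted p under 0.05, among them 9 of the 10 members. DIO libraries were all lower for 8 of 10 genes, all but Prg4 and Matn1, beside 6.74% of genes. The Lean means of d10 were 5.50 to 14.7 times the DIO means for the 9 genes other than Prg4, but replicate 1 carried much of this. Without it the Lean mean of all 10 genes was still above the DIO mean, by 1.46 to 5.92 times with a median of 3.29, and Acan and Clec3a passed the test beside 0.0634% of genes. Without replicate 1 of DIO d10 the log2 differences ran from -0.39 (Prg4) to -3.32 (Ucma), with 0 members called. DESeq2 called 41 genes on d10 and, of the members, Clec3a.

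The change of the diet difference from d7 to d10 was tested directly, over the 24 libraries of d3 to d10. It fell for 8 members, with log2 values of -8.35 ± 1.15 for Ucma (adjusted p = 0.00199), -5.53 ± 1.10 for Matn3 (0.00705), -5.16 ± 0.87 for Scrg1 (0.00334), -5.08 ± 1.00 for Cnmd (0.00684), -4.97 ± 0.91 for Acan (0.00487), -4.85 ± 1.12 for Hapln1 (0.0163), -4.85 ± 1.16 for Clec3a (0.0204) and -3.93 ± 0.82 for Comp (0.00959), all by edgeR. Prg4 had -1.91 ± 0.62 (adjusted p = 0.0755 by edgeR) and Matn1 -4.07 ± 1.41 (0.0919). Of all genes 5.07% were called. Without replicate 1 of Lean d10 the calls of Hapln1 and Clec3a were lost and Acan had -3.57, Comp -2.80 and Ucma -7.03. Without replicate 2 of Lean d7 the same 2 calls were lost, and without replicate 1 of Lean d7 or replicate 1 of DIO d10 that of Clec3a. With replicate 3 of Lean d7 and replicate 1 of Lean d10 both left out, an alternative chosen after seeing the data, 8 members passed beside 1.83% of genes, with Acan at -4.26 and Ucma at -7.46.

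Steps between days within DIO mice were tested in the fit of 18 DIO libraries. From d3 to d5 8 members passed with a rise, all but Acan (log2 change 2.26 ± 0.65, adjusted p = 0.102 by edgeR) and Prg4 (-1.08 ± 0.47, 0.308), while 1.68% of all genes were called. Hapln1 rose by 4.29 ± 0.73 (adjusted p = 0.00538 by edgeR), Comp by 2.94 ± 0.53 (0.00781) and Scrg1 by 3.51 ± 0.52 (0.00199). Comp lost its call without replicate 1 or 2 of DIO d3, and Ucma without replicate 1. From d5 to d7 0 members passed beside 0.0177% of genes, with 9 members and 14.2% of genes at an unadjusted p under 0.05 and Scrg1 nearest (2.16 ± 0.46, adjusted p = 0.06 by edgeR). DESeq2 called Scrg1, and libraries of the 2 days were free of overlap, d7 higher, for 8 members beside 8.14% of genes. From d7 to d10 all 10 fell, beside 13% of genes called. The log2 change was -5.33 ± 0.91 for Ucma (adjusted p = 0.000768 by edgeR), -4.41 ± 0.79 for Matn3 (0.00116), -3.94 ± 0.72 for Hapln1 (0.00131), -3.26 ± 0.68 for Acan (0.00379) and -2.27 ± 0.52 for Comp (0.00721). Matn1 had the weakest call (adjusted p = 0.0194 by edgeR), which was lost without replicate 1 or 3 of DIO d7 or replicate 1 or 3 of DIO d10, and its change of -3.01 was -4.57 without replicate 2 of DIO d10.

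From d10 to d14 the log2 change was negative for all 10 members. Comp alone passed, with -2.40 ± 0.52 (adjusted p = 0.0447 by edgeR), beside 0.759% of genes. At an unadjusted p under 0.05 were 8 members and 17.7% of genes. Acan (-2.89 ± 0.67), Hapln1 (-2.99 ± 0.70) and Matn1 (-4.43 ± 1.04) each had an adjusted p of 0.0526 by edgeR. Without replicate 3 of DIO d14, the highest of its group for 9 genes, 7 members passed beside 2.64% of genes. Without replicate 1 of DIO d10, the lowest of its group in all 10, 6 did beside 0.872%. Leaving out a library picked by these same genes widens their fall in itself. The call of Comp was lost without replicate 2 or 3 of DIO d10 or replicate 1 or 2 of DIO d14. From d14 to d21 0 members passed by edgeR or DESeq2, and 0 had an unadjusted p under 0.05, while 19.6% of all genes passed, with Comp at -0.98 ± 0.50 and Scrg1 at 0.77 ± 0.48. Without replicate 2 of DIO d21, the highest of its group for 8 genes, 3 members passed with a fall, Acan, Comp and Prg4, beside 23.5% of all genes called.

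Steps between days within Lean mice were tested in the fit of 12 Lean libraries. From d3 to d5 the log2 change was positive for 9 members. Cnmd alone passed, with 4.96 ± 0.95 (adjusted p = 0.0488 by edgeR), beside 0.449% of genes. Cnmd lost its call without any 1 of the 6 libraries of these days. At an unadjusted p under 0.05 were 9 members, Prg4 among them, and 14.8% of genes. Prg4 had -1.53 ± 0.36 (0.0821). From d5 to d7 0 members passed, with 0% of all genes called by edgeR. At an unadjusted p under 0.05 were 2 members and 926 genes (5.62%), and DESeq2 called 38 genes but 0 members. From d7 to d10 0 members passed beside 2.73% of genes, with 5 members and 26% of genes at an unadjusted p under 0.05, and Ucma came nearest with 3.05 ± 0.79 (adjusted p = 0.0595 by edgeR). Ucma passed without replicate 2 or 3 of Lean d10 and by DESeq2.

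The highest days of the diets were also set side by side. Between DIO d7 and Lean d10 calli, which differ in diet and day, 11.8% of all genes were called. Of the 10 members 1 was called, a share near that of all genes. It was Prg4, higher in DIO d7 by 2.00 ± 0.45 on the log2 scale (adjusted p = 0.00585 by edgeR). The other 9 had log2 differences from -0.26 ± 0.56 (Comp) to 1.44 ± 0.71 (Ucma). The ratio of the DIO d7 mean to the Lean d10 mean was 1.08 for Acan, 1.02 for Clec3a, 2.48 for Hapln1, 2.47 for Matn3 and 2.72 for Ucma. Without replicate 1 of Lean d10 all 10 ratios were above 1, from 1.60 to 6.76, and Ucma and Scrg1 passed as well, beside 9.54% of genes. That library was picked as the highest of its group in these same genes, so leaving it out raises their ratios in itself.

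Relative to Acan in the same library, the genes did not keep fixed proportions. Comp was 104% to 122% of Acan in DIO d7 libraries, 220% to 238% on d10 and 283% to 375% on d14, with no overlap between these days, and 137% to 198% in Lean d10 libraries. Ucma was 5.62% to 8.51% of Acan in DIO d7 libraries, 0.948% to 1.73% in Lean d7 and 2.19% to 3.51% in Lean d10 libraries, again without overlap. Matn3 was 14.5% to 18.2% of Acan in DIO d7 and 8.23% to 12.1% in Lean d7 libraries. Prg4 was 94.6% to 233% of Acan in DIO d3 libraries and 1.25% to 5.75% on d7. On d21 Scrg1 was 9.6% to 286% of Acan, and the library with the highest Scrg1 level held 70 reads of Acan. These ratios use raw levels of genes of different exon length and carry no test.

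**Figure D4:**
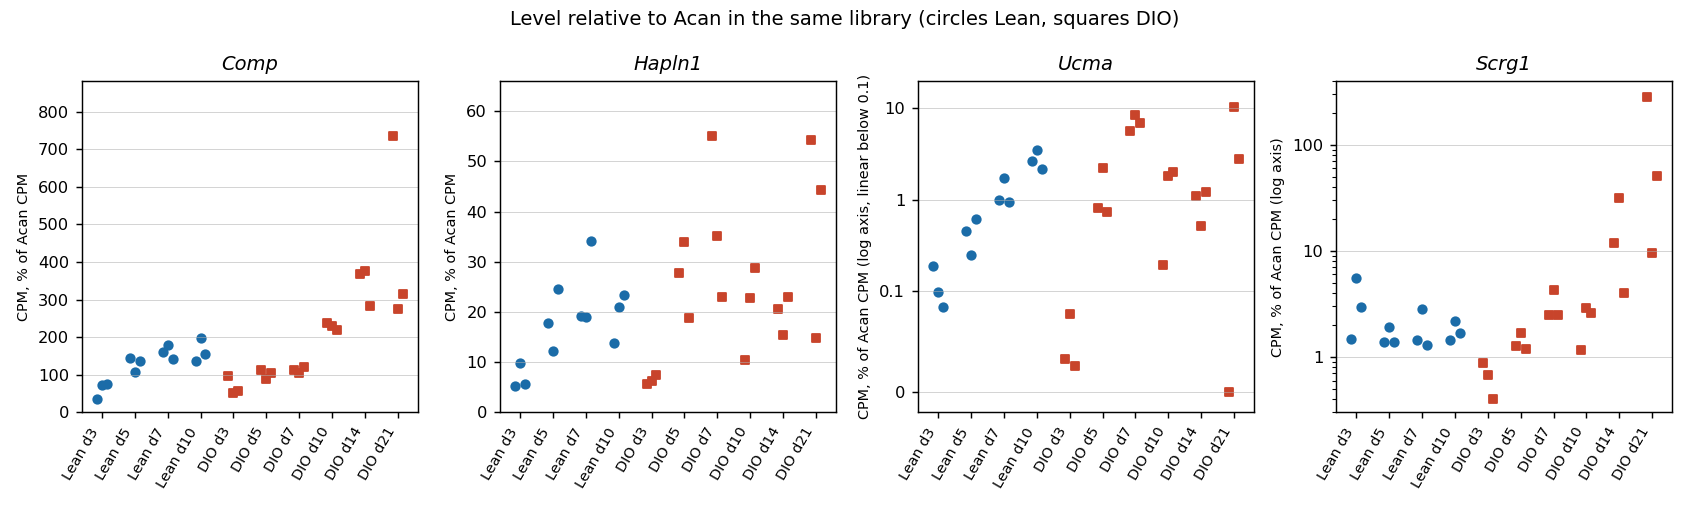
CPM of Comp, Hapln1, Ucma and Scrg1 as a percentage of the CPM of Acan in the same library (vertical, linear for Comp and Hapln1, log for Scrg1, log and linear below 0.1 for Ucma), by group, with 1 point per library. Comp climbs from 104% to 122% of Acan in DIO d7 calli to 283% to 375% in DIO d14 calli, and Ucma is highest in DIO d7 calli apart from 1 of the DIO d21 calli.

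Over the 30 libraries, log2 CPM of the 9 genes other than Prg4 had pairwise Pearson r from 0.635 to 0.983 (median 0.914, 36 pairs), and Prg4 had r from -0.178 to 0.539 with these 9. These values describe libraries that share diet, day and cartilage content. Among 14808 genes with a mean of at least 1 CPM, the 3 genes outside the members most like each member were cartilage collagens in 14 of 30 cases. The count ran from 0 of 3 for Acan, Prg4 and Scrg1 to 3 of 3 for Comp and Cnmd. Col9a1 was nearest to Hapln1 (r = 0.983, 30 libraries) and Matn3 (0.989), Col9a3 to Comp (0.989) and Ucma (0.939), and Col2a1 to Cnmd (0.981). Matn1 was nearest to Fxyd3 (0.96) and Col2a1 (0.95), Clec3a to Meltf (0.969), Snorc (0.962) and Col10a1 (0.951), and Acan to Thbs3 (0.964), Fmod (0.962) and Col16a1 (0.961). Scrg1 had the least close neighbours, with Smim5 at 0.899, and Prg4 had others altogether: Sod3 (0.952), Has2 (0.943), which makes hyaluronan, and Tgfbi (0.941).

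The genes around them were counted from lists of the pathway. Of all genes 2.32% were called on d7 and 5.07% for the change of the diet difference, in either direction. Of 8 cartilage collagens 1 was higher in DIO mice on d7, Col9a3 (2.39 ± 0.46, adjusted p = 0.0307 by edgeR), and the list median was 1.70 beside -0.0013 over all genes and 2.1 over the 10 members. On d10 0 of 8 passed, beside 0% of all genes, with a list median of -2.50. The diet difference fell from d7 to d10 for 5 of 8, led by Col9a3 with -5.61 ± 1.05 (adjusted p = 0.00541 by edgeR) and Col9a2 with -5.00 ± 1.02 (0.00797). Of 30 other noncollagenous cartilage genes 29 were tested on d7 and 8 rose, led by Epyc, a small leucine-rich proteoglycan (3.65 ± 0.50, adjusted p = 0.0138 by edgeR) and Fn1, fibronectin (1.78 ± 0.26, 0.0154). The diet difference of 16 of these 29 fell from d7 to d10, with Fn1 at -3.03 ± 0.48 (adjusted p = 0.00269 by edgeR) and Smoc2 at -2.24 ± 0.38 (0.00334).

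Enzymes that build and sulfate the chains of aggrecan were counted next, beside 1.08% of all genes called on d5, 2.32% on d7 and 5.07% for the change. Of 12 such enzymes 7 rose in DIO over Lean mice on d7, with Chst11, a chondroitin sulfotransferase, at 1.24 ± 0.18 (adjusted p = 0.0152 by edgeR) and Papss2, which makes the sulfate donor, at 2.05 ± 0.30 (0.0158). The diet difference fell from d7 to d10 for 10 of 12, with Papss2 by 3.33 ± 0.53 and Csgalnact1, which starts chondroitin chains, by 2.46 ± 0.39, both at an adjusted p of 0.00269 by edgeR. On d5 Csgalnact1 was the 1 enzyme that passed (0.67 ± 0.11, adjusted p = 0.0432 by edgeR). Of 18 chondrocyte regulators, 17 were tested on d7 and 7 rose, led by Gdf5, a growth factor of joint and cartilage formation (2.62 ± 0.33, adjusted p = 0.00932 by edgeR), and Wwp2 (1.63 ± 0.26, 0.0195). Gdf5 also passed on d5, by 2.16 ± 0.36 (adjusted p = 0.0445 by edgeR). The diet difference fell from d7 to d10 for 12 of 17, with Gdf5 by 4.74 ± 0.80 (adjusted p = 0.00334 by edgeR) and Wwp2 by 2.87 ± 0.51 (0.0037).

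The 14 proteases and inhibitors that act on this matrix did not share the pattern. On d7 1 differed between diets, Mmp9, a gelatinase of osteoclasts and myeloid cells, which was lower in DIO mice by 1.27 ± 0.21 on the log2 scale (adjusted p = 0.0197 by edgeR), and the list median was 0.00753. From d7 to d10 the diet difference of Timp1, an inhibitor, fell by 2.15 ± 0.58 (adjusted p = 0.0363 by edgeR) and that of Mmp9 rose by 1.22 ± 0.34 (0.0442). The aggrecanases Adamts4 and Adamts5 were not called in the diet comparisons or in this change. On d10 0 genes of the 5 lists passed, beside 0% of all genes. The share of all genes called was 2.32% on d7 and 5.07% for the change.

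Markers of other cell types moved too, and their part in the results was not tested. Of all genes 1.08% were called between diets on d5, 2.32% on d7 and 5.07% for the change of the diet difference. On d7 2 of 7 leukocyte markers were lower in DIO mice, Csf1r (-1.02 ± 0.19, adjusted p = 0.0273 by edgeR) and Ptprc (-0.97 ± 0.20, 0.0418), and the sum of the 7 was 2250 to 4070 CPM against 4590 to 5590 in Lean mice. On d5 Ptprc and Lyz2 were lower. On d10 the sum was 2590 to 3390 CPM in DIO and 1350 to 3490 in Lean mice. Skeletal muscle markers summed to 17900 to 24600 CPM in DIO d10 calli and to 1150, 14300 and 9860 in Lean d10 calli. All 7 had a positive log2 difference on d10, with a median of 1.35 beside 0.016 over all genes. The test called 0 of 7, on a day when 0% of all genes were called. Osteoblast markers summed to 39900 to 47100 CPM in DIO and 43000 to 70200 in Lean d10 calli, with 3 of 7 log2 differences positive and 0 called. Tendon markers summed to 2280 to 3070 CPM in DIO d7 calli and to 1220 to 1320 in Lean d7 calli, and 1 of 7 was called, Fmod. Fmod made up most of this sum, with means of 2208 CPM in DIO and 976 in Lean d7 calli. Both Fmod and Thbs4 are also on the cartilage list. The log2 difference was positive for 4 of the 7 tendon markers, and Tnmd, Kera and Egr1 had lower means in DIO d7 calli. Of 7 osteoblast markers 1 was lower in DIO mice on d7, Bglap, which encodes osteocalcin (-2.64 ± 0.39, adjusted p = 0.0156 by edgeR). Of 4 adipocyte markers tested on d7 2 were lower, Adipoq (-1.85 ± 0.35, adjusted p = 0.0293 by edgeR) and Pparg (-1.39 ± 0.28, 0.0368). The 6 adipocyte markers summed to 142 to 178 CPM in DIO d7 and 238 to 361 in DIO d10 calli, and to 152 to 215 and 66.3 to 176 in Lean calli of these days. The diet difference rose from d7 to d10 for Adipoq (3.92 ± 0.92, adjusted p = 0.0181 by edgeR), Bglap (2.92 ± 0.79, 0.0363), Pparg (2.03 ± 0.41, 0.00707) and Csf1r (1.18 ± 0.26, 0.0143). From d7 to d10 in DIO mice 4 of 6 adipocyte markers and 3 of 7 osteoblast markers rose while the 10 cartilage genes fell. In that step 13% of all genes were called, in either direction. No marker of these lists was at 0 in all libraries of a group.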

How the data were processed

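Poly(A) RNA of 30 fracture calli, 1 library per mouse, was sequenced from stranded libraries. Per the labels and the study's methods, the authors demultiplexed reads with bcl2fastq, trimmed them with BBDuk, aligned them to GRCm38 with HISAT2 2.1.0 and counted reads per gene with HTSeq. The deposited values are these counts, not normalized. For HTSeq the version, strand option and annotation are not given in the sources used here. The members and all gene lists were chosen with earlier results of these data known.

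From these counts, TMM-scaled CPM over 30 libraries were computed, and changes were tested with edgeR 4.0.16 (filterByExpr, two-sided quasi-likelihood F-test, Benjamini-Hochberg over all genes tested, threshold 0.05) in R 4.3.3. Lean days were fitted over 12 libraries, DIO days over 18, diets within a day over 6, and both the d7 to d10 change and DIO d7 against Lean d10 over 24. SE is the log2 change divided by the square root of its F. Symbols and exon lengths came from GENCODE M21, and copies were searched with BLAST 2.17.0 (at least 100 bases, 95% identity). Besides the members, the 2 genes of each pathway list with the smallest p were taken in the diet comparisons and the d7 to d10 change. Of these the text names only genes that passed the threshold. It also names the 3 genes most like each member in log2 CPM with a prior count of 2. Marker genes and Adamts4 and Adamts5 were named after their values were seen.

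Total counts ran from 13247122 to 26365620, so the spread between 3 mice, and for genes of a few reads counting error, sets the precision. Alternatives were RLE factors, DESeq2 1.42.0, no filter but 1 count, the replicate number as a block, all 30 libraries in 1 fit and each library left out. Replicate numbers label different mice, and for 12 of 13 pairs of groups compared the deviations of same-numbered libraries did not all correlate above 0.1, so no block entered the tests. For Lean d7 against d5 they did (r = 0.204 to 0.276), and there 0 members passed with or without the block. Libraries of the same group differed by more than sampling noise in all 30 pairs (chi-square per degree of freedom 13.6 to 160).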

Additional observations from a re-analysis of the deposited data

Results flagged for a closer look

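In 8 of the 10 genes the diet difference on d10 differed from that on d7 by a test of the change itself over the 24 libraries of d3 to d10 (edgeR, adjusted p from 0.00199 to 0.0204). DIO minus Lean changed, on the log2 scale, by -4.97 for Acan, -4.85 for Hapln1, -3.93 for Comp, -5.53 for Matn3, -5.08 for Cnmd, -8.35 for Ucma, -5.16 for Scrg1 and -4.85 for Clec3a. The DIO libraries of these genes were all above the Lean libraries on d7 and all below them on d10. Of all genes tested, 5.07% were called for the change. Of genes with at least 10 reads in the 6 libraries, 9.37% had all DIO libraries higher on d7 and 6.74% had all lower on d10. The calls of Hapln1 and Clec3a depended on single libraries, as given above, and groups of 3 are too small for a search for outlying libraries.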

How the results depend on the processing

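The number of members past the threshold was 10 from d7 to d10 in DIO mice (13% of all genes), 8 from d3 to d5 (1.68%), 8 for the change of the diet difference (5.07%) and 1 for DIO d7 against Lean d10 (11.8%). Each stayed within 1.5 times that number with RLE factors, DESeq2, no filter but 1 count, the replicate block and all 30 libraries in 1 fit. The count was 0 in each of these fits for Lean d7 against d5 and DIO d21 against d14, and other counts moved. Brackets give the share of all genes called in the same fit. For Lean d5 against d3 the 1 call (0.449%) became 0 with RLE (0.407%), 6 with DESeq2 (3.54%), 4 without the filter (0.662%) and 3 with all 30 libraries (1.16%). For Lean d10 against d7 the 0 (2.73%) became 1 with DESeq2 (10.9%), without the filter (2.38%) and with all 30 (8.81%). For DIO d7 against d5 the 0 (0.0177%) became 1 with DESeq2 (2.02%) and 3 without the filter (1.02%). For DIO d14 against d10 the 1 (0.759%) became 6 with DESeq2 (3.25%), 8 without the filter (1.24%) and 0 with all 30 (0.0115%). Between diets, the 0 of d3 (0%) became 1 with DESeq2 (4.6%) and without the filter (2.11%), and the 0 of d5 (1.08%) became 1 with DESeq2 (7.31%). The 4 of d7 (2.32%) became 8 without the filter (3.04%), 6 with DESeq2 (5.99%) and 2 with all 30 (3.89%). The 0 of d10 (0%) became 1 with DESeq2 (0.267%) and 5 without the filter (0.124%). The causes were not tested. DESeq2 also called more of all genes, 5.99% against 2.32% on d7 and 7.31% against 1.08% on d5.

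The labels give no replicate numbers. Those used here follow the order of the samples within a group and mark no shared animals. Adding them as a replicate block gave 2 members for Lean d5 against d3 (1.21% of all genes), 1 for Lean d10 against d7 (8.98%), 0 for DIO d14 against d10 (0.265%) and 9 for the diets on d7 (2.03%), with the other counts within 1.5 times. With 1 library left out at a time the number of members ran from 0 to 0 for Lean d5 against d3 (0.0535% to 0.767% of all genes), 0 to 1 for Lean d10 against d7 (0.143% to 6.79%), 0 to 2 for DIO d7 against d5 (0% to 1.35%), 0 to 7 for DIO d14 against d10 (0% to 2.64%) and 0 to 3 for DIO d21 against d14 (7.41% to 23.5%). Between diets the number of members ran from 0 to 8 on d5 (0% to 5.82%), 2 to 8 on d7 (0.179% to 5.78%) and 0 to 2 on d10 (0% to 0.0634%). It ran from 6 to 9 for the change (1.48% to 9.56%) and from 1 to 3 for DIO d7 against Lean d10 (6.38% to 13.4%). Between DIO d7 and Lean d10 the log2 difference of 4 members that did not pass the test turned direction when 1 library was left out. It ran from -0.30 to 1.5 for Acan, -0.65 to 0.87 for Comp, -0.10 to 1.38 for Matn1 and -0.31 to 0.68 for Clec3a, in each case highest without replicate 1 of Lean d10. Mean levels with RLE factors differed from those with TMM by at most 1.02-fold. Depth limits Matn1, Ucma and Clec3a on d3, d14 and d21, where libraries held 0 to 87 reads.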
